A study of Mus musculus with 56 samples.

Results

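The SREBP system of the liver was followed through 7 genes, Srebf1, Srebf2, Scap, Insig1, Insig2, Mylip and Stard4, which were taken by symbol from the 25415 rows of the gene table of this series. All 7 were found and all 7 passed the filter on low values. The study profiled whole liver of C57BL/6J females, 9 weeks old, which had been fed only in the day (daytime-restricted feeding, DRF) or only in the night (nighttime-restricted feeding, NRF, the control regimen) for 7 days under 12 h of light a day, with normal chow, and with no other treatment or genetic change named for either group. Sampling ran every 4 h from zeitgeber time (ZT, counted in hours from lights on) 0 to 24, with 4 animals at each time and regimen, which gave 14 groups and 56 libraries. Each animal gave 1 library at 1 time, so a profile over the day joins different animals.

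Sterol regulatory element-binding proteins (SREBPs) are transcription factors that are made as membrane proteins of the endoplasmic reticulum and become active only after they are cut in the Golgi. Scap escorts them to the Golgi when membrane cholesterol is low, and Insig1 and Insig2 hold the Scap and SREBP complex back when sterols are plentiful. In liver, SREBP-1c, a product of Srebf1, drives fatty acid synthesis after feeding and insulin, while SREBP-2, the product of Srebf2, drives cholesterol synthesis and uptake. Mylip encodes a ubiquitin ligase that lowers the uptake of cholesterol and is induced by liver X receptors, the sensors of oxidised cholesterol. Stard4 encodes a small carrier that moves cholesterol between membranes.

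Values are given as scaled counts, the depth-scaled number of counts of a gene that was recovered from the deposited values. The libraries held 126 to 288 M recovered counts (M, 1e6), and 1 scaled count stands for 304 to 723 of them. These totals exceed the average number of reads per sample that the study states, so they are not given as sequencing depth. Rhythms were described by a cosine curve with a 24-h period fitted to log2(scaled count + 1), with a mean, an amplitude (mean to peak, log2) and a peak time for each regimen, and all adjusted p-values come from limma with Benjamini-Hochberg adjustment over the 13684 genes tested.

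The base sequences in front of the starts of 4 members are shown so that known control letters can be looked for in them, and because the transcripts from different starts of Srebf1 were measured apart. RefSeq gave 11 windows for 6 of the members, all but Stard4. The sequences are RefSeq promoter windows of the build GRCm38.p6, cut where the first annotated exon begins and written 5′ to 3′ on the strand of the gene. Capitals mark the letters TCACCCCA (the core of the sterol regulatory element), CACGTG (an E-box), CCAAT and AGTAACCCC (its reverse complement GGGGTTACT is one arm of the liver X receptor element known from the mouse Srebf1 gene), on either strand.

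Srebf1, downstream start, chr11:60210472-60210721, minus strand:
Srebf1 downstream: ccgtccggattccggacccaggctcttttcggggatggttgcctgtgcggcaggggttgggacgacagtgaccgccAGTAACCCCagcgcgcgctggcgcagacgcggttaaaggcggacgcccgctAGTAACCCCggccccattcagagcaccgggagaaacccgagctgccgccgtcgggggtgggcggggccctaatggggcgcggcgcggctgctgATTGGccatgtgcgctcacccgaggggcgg
Srebf1, upstream start, chr11:60220628-60220877, minus strand:
Srebf1 upstream: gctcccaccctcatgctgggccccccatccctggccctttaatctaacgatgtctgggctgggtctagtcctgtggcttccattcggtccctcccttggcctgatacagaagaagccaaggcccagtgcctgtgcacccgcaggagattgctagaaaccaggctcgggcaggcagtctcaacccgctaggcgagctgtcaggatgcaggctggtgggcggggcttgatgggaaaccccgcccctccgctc
Srebf2, chr15:82147019-82147180, plus strand:
Srebf2: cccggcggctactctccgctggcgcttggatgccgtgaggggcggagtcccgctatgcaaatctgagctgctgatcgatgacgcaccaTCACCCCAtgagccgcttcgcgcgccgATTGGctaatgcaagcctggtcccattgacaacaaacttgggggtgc
Insig1, chr5:28071162-28071362, plus strand:
Insig1: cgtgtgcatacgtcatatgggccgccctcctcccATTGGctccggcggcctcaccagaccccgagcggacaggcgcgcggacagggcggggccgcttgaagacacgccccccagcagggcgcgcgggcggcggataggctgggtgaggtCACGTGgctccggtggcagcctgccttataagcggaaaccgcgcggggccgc
Mylip, chr13:45389492-45389741, plus strand:
Mylip: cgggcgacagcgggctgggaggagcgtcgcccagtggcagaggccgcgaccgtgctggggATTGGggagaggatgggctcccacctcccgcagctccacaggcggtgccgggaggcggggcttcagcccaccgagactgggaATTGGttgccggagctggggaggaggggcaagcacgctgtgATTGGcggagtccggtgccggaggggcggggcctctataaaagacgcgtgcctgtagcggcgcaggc

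The stretch before the downstream start of Srebf1 held AGTAACCCC at 2 places, letters found in 0.134% of the 32851 promoter windows of 300 bases. These letters come from the element known in this same gene, so their presence there was fixed in advance. The stretches shown are shorter than the windows behind the shares given here. The stretch before the upstream start held none of the 4 motifs. TCACCCCA, present in 1.56% of all windows, occurred in the Srebf2 stretch only, among the sequences shown. CACGTG, present in 7.15% of windows, lay in the Insig1 stretch, and CCAAT in either orientation, present in 37.4% of windows, lay in all sequences shown except that of the upstream Srebf1 start and was found 3 times in that of Mylip. A match of letters is a description of the window and does not show that a factor binds there.

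In GRCm38 the members lie on 7 chromosomes. Srebf1 (ENSMUSG00000020538) is at chr11:60199089-60222581 and Insig2 (ENSMUSG00000003721) at chr1:121304353-121332589, both on the minus strand, as is Stard4 (ENSMUSG00000024378) at chr18:33199355-33213862. On the plus strand are Srebf2 (ENSMUSG00000022463) at chr15:82147181-82205379, Scap (ENSMUSG00000032485) at chr9:110333288-110384950, Insig1 (ENSMUSG00000045294) at chr5:28071363-28078662 and Mylip (ENSMUSG00000038175) at chr13:45389742-45412022.

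Levels differed widely between the members. Per kilobase of annotated exon, the mean over all 56 libraries was 71.9 scaled counts for Insig1, 38.2 for Srebf1, 14.9 for Insig2, 11.1 for Stard4, 8.58 for Scap, 5.06 for Mylip and 4.68 for Srebf2. Single libraries ranged from 28.0 to 146 for Insig1 and from 9.77 to 83.4 for Srebf1 on this per-kilobase scale, so these neighbours in the order overlapped. Srebf2 ranged only from 3.33 to 6.88 and overlapped Mylip (2.63 to 8.17). Estimated transcript counts gave other relative levels, with means of 222 for Scap-201 (4227 bases) and 142 for Insig1-201 (2697 bases). All members are protein-coding genes, and in no member did exons of another gene on the same strand cover more than 1.17% of its exon bases. The 985 exon bases (13.2%) of Scap shared with 5830462I19Rik lie on the opposite strand, and the libraries were strand-specific. What this overlap adds to the counts of Scap was not tested.

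The comparison of the regimens asked how far the daily profile of each gene follows food rather than light. In whole liver, fewer cells of a type and less RNA per cell cannot be told apart. A 24-h rhythm passed the test under DRF for 5 of 7 members (Srebf1, Scap, Insig1, Insig2 and Mylip) and under NRF for 6 of 7 (the same 5 and Srebf2). Over all genes tested, 54.7% passed under DRF and 61.0% under NRF. The rhythm itself differed between regimens for 6 of 7 members against 57.1% of all genes. Among the 5 members rhythmic in both regimens, all 5 had peaks 8 to 12 h apart, against 50.7% of the 5277 genes rhythmic in both, and the median difference was 11.1 h against 8.12 h.

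**Figure D1:**
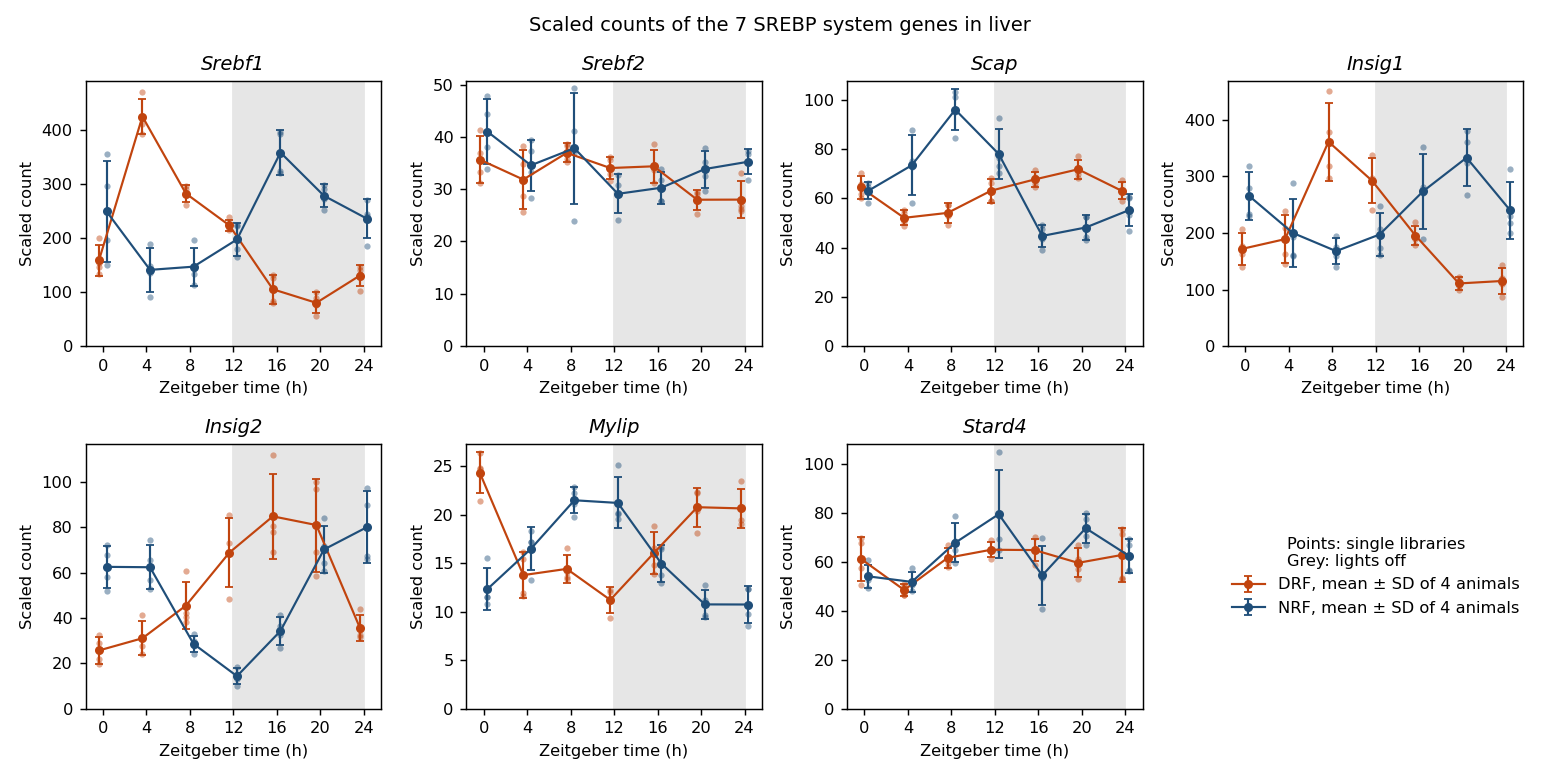
Scaled counts (y axis) of the 7 genes by zeitgeber time in hours (x axis); points are single libraries, lines join group means, bars are the SD of 4 animals, and grey marks lights off. Srebf1, Insig1, Insig2, Scap and Mylip have fitted peaks 8.25 to 11.5 h apart under DRF (orange) and NRF (blue), whereas Srebf2 and Stard4 stay close to flat.

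Srebf1 had the largest swing under DRF. Under DRF its 4 libraries at ZT4 held 394, 412, 425 and 470 scaled counts, and those at ZT20 held 55.0, 76.6, 88.9 and 99.7, a 5.31-fold ratio of means with no overlap. Here and for the other members, the highest and lowest groups were picked from the same profile, so their lack of overlap is only a description. The share of all genes with such a gap is not given. Under NRF the highest group was ZT16, with 320, 324, 392 and 397, and the lowest was ZT4, with 90.8, 136, 148 and 189, a 2.54-fold ratio. In both regimens the high point thus came at the first sampling time after the light change taken as the start of the food phase. The labels do not give the hours of food. The fitted peaks were at ZT 6.71 ± 0.287 h (SE) under DRF and 18.2 ± 0.485 h under NRF. The amplitude under DRF was 1.14 ± 0.0962 (SE), at percentile 99.7 of all genes tested, and under NRF it was 0.67 ± 0.0965. The amplitudes differed by 0.47 (95% interval 0.19 to 0.74), and the rhythms differed with adjusted p = 4.39e-16 in limma. At the same ZT, Srebf1 was 3.09-fold higher under DRF at ZT4 (adjusted p = 1.42e-08) and lower at ZT16 and ZT20, where the ratios of DRF to NRF were 0.290 and 0.284.

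Transcripts of Srebf1 that start downstream had the larger swing. Srebf1-207, whose annotated first base (chr11, 60210465, minus strand) lies beside the sequence shown for the downstream start, averaged 49.0 ± 4.50 scaled estimated counts at ZT4 and 6.61 ± 2.01 at ZT20 under DRF (SD, n = 4). Under NRF it averaged 33.6 ± 6.33 at ZT16 and 14.7 ± 5.51 at ZT4. Srebf1-201, which starts upstream at 60220604, averaged 13.3 ± 1.4 at ZT4 and 6.99 ± 1.18 at ZT20 under DRF, and its groups under NRF lay between 8.13 and 11.6. The fitted amplitudes under DRF were 1.29 for Srebf1-207 and 0.45 for Srebf1-201. The rhythms of both differed between regimens (adjusted p = 2.57e-14 and 9.74e-06), with peaks 11.9 h apart in each, while the rhythm of Srebf1-201 under NRF did not pass the test (adjusted p = 0.0791). Srebf1-203, an annotated transcript that begins further downstream at 60207188, moved like Srebf1-207, with an amplitude of 1.08 under DRF. The difference in amplitude between the transcripts was not tested. Of 21539 transcripts tested, 23.5% had a rhythm under DRF, 28.4% under NRF and 28.0% a difference in rhythm. Among transcripts of other members, Insig1-201, Scap-201 and Mylip-201 differed in rhythm in limma (adjusted p = 2.07e-10, 2.08e-10 and 6.62e-13). Srebf2-201 (0.0868), Stard4-201 (0.666), Insig2-201 (0.445), Insig2-203 (0.416) and Insig2-214 (0.143) did not pass. Estimated transcript counts are less certain than gene counts, since for genes that have 1 annotated transcript only 41.4% to 47.7% of the transcript values matched the curve to within 2%.

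**Figure D2:**
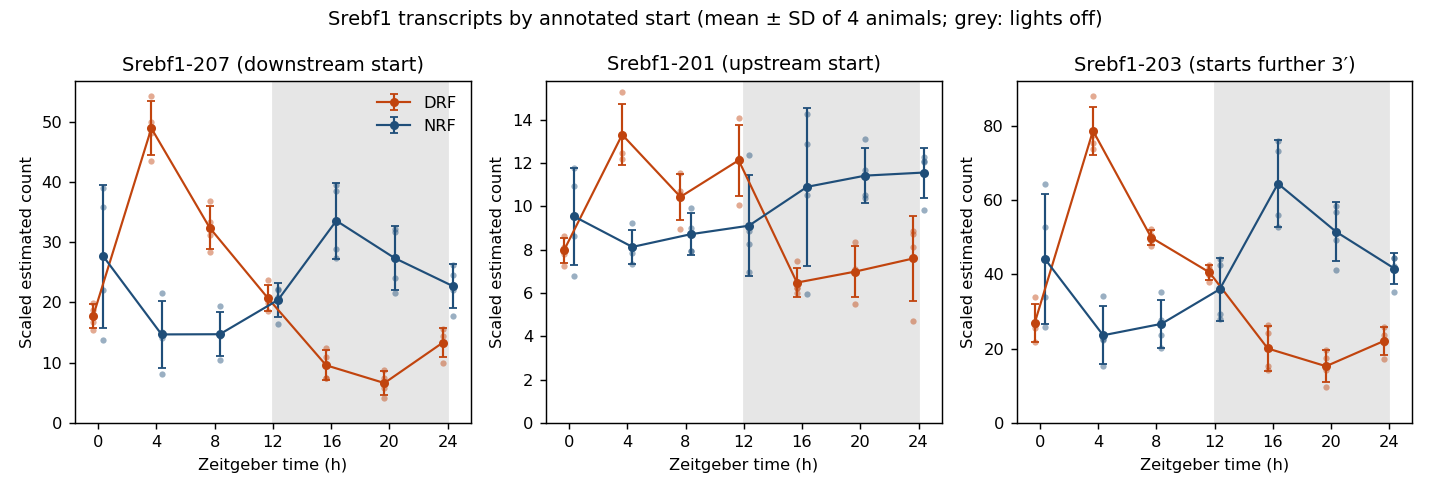
Scaled estimated counts (y axis) of 3 annotated Srebf1 transcripts by zeitgeber time in hours (x axis); points are single libraries, lines join group means and bars are the SD of 4 animals. Srebf1-207 swings between 6.61 and 49.0 under DRF, and Srebf1-201 between 6.48 and 13.3.

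Srebf2 stayed nearly level. Its group means ran from 28.0 to 37.0 scaled counts under DRF and from 29.1 to 41.0 under NRF. The highest NRF group, ZT0, held 33.8, 38.0, 44.4 and 47.8, and the lowest, ZT12, held 24.1, 28.8, 30.9 and 32.7. These groups did not overlap, yet the amplitude under NRF was only 0.17 ± 0.0543, close to the median of all genes (0.18). The rhythm passed under NRF (adjusted p = 0.0211 in limma) and not under DRF (adjusted p = 0.10), and no difference between regimens at the same ZT passed. Without ZT0 these calls were exchanged, with adjusted p = 0.0104 under DRF and 0.0913 under NRF. The rank test and cosinor combined by Fisher's method gave 0.0400 under DRF. That method takes the tests as independent, but both used the same libraries, so this value can be too small and is not further support. The difference in rhythm passed at adjusted p = 0.0118 but gave 0.0542 without ZT24, and the rhythm under NRF gave 0.0616 without NRF ZT12 replicate 4. Neither passed for the protein-coding transcript Srebf2-201 (adjusted p = 0.0868 and 0.145 in limma). Per kilobase, Srebf1 exceeded Srebf2 in every library by gene counts, from a mean ratio of 3.69 ± 1.09 (SD, n = 4) at DRF ZT20 to 17.5 ± 4.04 at DRF ZT4. Gene and transcript values disagreed on these levels. In estimated transcript counts, not divided by length, Srebf2-201 averaged 100, above Srebf1-201 (9.59), Srebf1-203 (38.6) and Srebf1-207 (22.2).

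Scap, the escort of the SREBPs, ran opposite to Srebf1. Under NRF it was highest at ZT8, with 84.5, 95.2, 101 and 103 scaled counts, and lowest at ZT16, with 38.8, 43.6, 47.4 and 49.1. Under DRF the range was narrower, from 52.1 ± 3.10 (SD, n = 4) at ZT4 to 71.7 ± 3.77 at ZT20. The groups named did not overlap within either regimen. The DRF peak was fitted at ZT 18.3 ± 0.667 h (SE) and the NRF peak at ZT 7.26 ± 0.297 h, a shift of 11.1 h (95% interval 9.59 to 12.5). The amplitude was 0.22 ± 0.0444 under DRF and 0.51 ± 0.0439 under NRF, a difference of -0.29 (95% interval -0.41 to -0.16), opposite in sign to that of Srebf1. Across the 14 group means, Scap and Srebf1 had a Pearson r of -0.70, given as a description since both were measured in the same libraries.

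Insig1 and Insig2, which share the role of holding Scap in the endoplasmic reticulum, peaked hours apart. Insig1, itself a target of SREBPs, was highest under DRF at ZT8, with 297, 319, 379 and 451 scaled counts, and lowest at ZT20, with 98.7, 106, 116 and 123. Under NRF it was highest at ZT20, with 267, 323, 362 and 381, and lowest at ZT8, with 141, 160, 176 and 196. The high and low groups did not overlap in either regimen, and at ZT8 and ZT20 the order of the regimens was exchanged. The amplitude was 0.77 ± 0.0772 (SE) under DRF and 0.46 ± 0.0817 under NRF, a difference of 0.31 (95% interval 0.09 to 0.54). Peaks lay at ZT 9.52 ± 0.396 h and 19.6 ± 0.629 h.

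Insig2 was highest under DRF at ZT16, with 69.1, 77.9, 80.4 and 112 scaled counts, and lowest at ZT0, with 19.6, 22.1, 28.8 and 32.3. Under NRF it was highest at ZT24, with 65.9, 67.4, 89.8 and 97.3, and lowest at ZT12, with 10.2, 13.2, 15.5 and 18.6, a 5.57-fold ratio of means. High and low libraries were apart in both regimens. The largest difference between regimens of any member at any ZT was that of Insig2 at ZT12, where DRF held 48.5, 68.1, 73.1 and 85.3 and NRF 10.2 to 18.6, a log2 difference of 2.18 ± 0.195 (SE; adjusted p = 3.31e-12 in limma). Insig2 peaked at ZT 15.3 ± 0.444 h under DRF and 23.6 ± 0.388 h under NRF. These peaks were 8.25 h apart. Per kilobase, the ratio of Insig1 to Insig2 moved from 1.64 ± 0.555 (SD, n = 4) at DRF ZT20 to 9.36 ± 3.03 at DRF ZT8, and from 3.55 ± 1.36 at NRF ZT24 to 15.8 ± 3.16 at NRF ZT12.

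Mylip, the ligase that lowers cholesterol uptake, ran opposite to Insig1, with a Pearson r of -0.74 over the 14 group means, given as a description. Under DRF it held 21.4, 24.7, 24.8 and 26.4 scaled counts at ZT0 and 9.36, 11.3, 12.1 and 12.2 at ZT12. Under NRF it held 19.8, 21.1, 22.2 and 22.9 at ZT8 and 8.52, 9.76, 12.3 and 12.4 at ZT24. High and low groups did not overlap, and each ratio of means was about the same size, 2.17-fold and 2.0-fold. The peaks, at ZT 22.1 ± 0.486 h (SE) and 9.54 ± 0.403 h, were 11.4 h apart (95% interval 10.1 to 12.7), and the amplitudes, 0.44 and 0.52, differed by -0.08 (95% interval -0.23 to 0.07). Of the members rhythmic in both regimens, Mylip alone passed no test of departure from a profile turned by 12 h (adjusted p = 0.472), which does not show that its turn was complete.

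Stard4 had no 24-h rhythm that passed the test, with adjusted p = 0.201 under DRF and 0.109 under NRF, though both passed with the deposited values logged in place of scaled counts (0.0263 and 0.0314). Its group means ran from 48.6 ± 2.40 scaled counts (SD, n = 4) at DRF ZT4 to 79.6 ± 18 at NRF ZT12, and the latter group was wide, with 64.9, 69.5, 78.8 and 105. The highest and lowest groups of Stard4 did not overlap in either regimen (ratios of means 1.34-fold under DRF and 1.53-fold under NRF). Such a gap therefore does not set the rhythmic members apart. Stard4 did show a component with a 12-h period under NRF (amplitude 0.25, adjusted p = 0.00938 in limma), which was lost with the deposited values logged (0.165). Its NRF means were 67.9 at ZT8 and 79.6 at ZT12, 54.6 at ZT16 and 73.9 at ZT20.

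A 12-h component passed the test under NRF for 3 of 7 members, Stard4, Insig2 (amplitude 0.33, adjusted p = 0.0199) and Scap (amplitude 0.16, adjusted p = 0.0195), against 4.50% of all genes tested. This component was added to the 24-h curve, with sampling every 4 h. The test cannot tell a profile that repeats every 12 h from a single daily swing that departs from a cosine. The call of Scap was lost without NRF ZT4 replicate 1 (adjusted p = 0.105) or NRF ZT16 replicate 1 (0.0755), and that of Insig2 without NRF ZT12 replicate 2 (0.0673). Under DRF 0 members passed in limma (2 at an unadjusted p under 0.05), against 9.57% of all genes. Srebf1 (adjusted p = 0.0787) and Insig2 (0.0973) came nearest, and Srebf1 passed without DRF ZT16 replicate 1 (0.0440), DRF ZT16 replicate 2 (0.0346) or DRF ZT20 replicate 4 (0.0342).

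**Figure D3:**
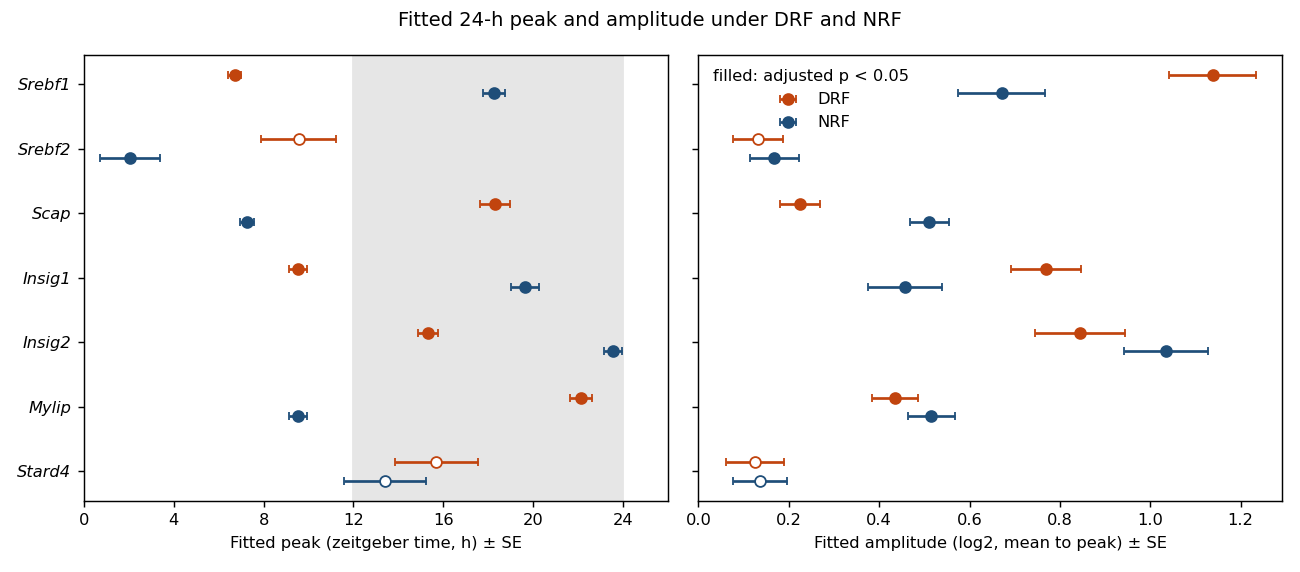
Fitted peak in hours of zeitgeber time (left) and fitted amplitude on the log2 scale (right) of each gene under DRF and NRF, with bars of 1 SE; filled points passed the test of a 24-h rhythm. Srebf1 moves from ZT 18.2 under NRF to ZT 6.71 under DRF, whereas Insig2 moves by 8.25 h.

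The start of the phase with food was taken as lights on under DRF and lights off under NRF, since the labels do not give its hours. Counted from that start, the fitted peaks of the 5 rhythmic members came in one order in both regimens. Under DRF the fitted peaks came 6.71 h (Srebf1), 9.52 h (Insig1), 15.3 h (Insig2), 18.3 h (Scap) and 22.1 h (Mylip) after lights on. Under NRF they came 6.25 h, 7.64 h, 11.6 h, 19.3 h and 21.5 h after lights off, in the same sequence of genes. This order was not tested. Under NRF, with sampling every 4 h, the close peaks of Srebf1 and Insig1 had SEs of 0.485 and 0.629 h. Srebf1, Scap and Mylip differed between regimens by less than 1 h on this clock, while Insig1 and Insig2 peaked later after the start of the food phase under DRF, and only their 95% intervals for the shift (8.62 to 11.6 h and 7.06 to 9.43 h) excluded 12 h among these 5. Departure from a rhythm turned by exactly 12 h passed the test for Srebf1 (adjusted p = 0.00772 in limma), Scap (0.000326), Insig1 (0.00207), Insig2 (3.91e-06) and Stard4 (0.0377), 5 of 7 members against 50.8% of all genes. This test covers the amplitude as well as the peak time. The call of Stard4 was lost in 14 of 56 fits that left out 1 library each, and with the deposited values logged in place of scaled counts those of Srebf1 and Scap were lost (adjusted p = 0.477 and 0.199).

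Compared at the same ZT, the regimens differed in 27 of 49 comparisons of 7 members at 7 times. At ZT0 4 members passed, against 26.6% of all genes, and at ZT4 3, against 32.5%. At ZT8 5 passed (22.1% of all genes), with 3 members higher and 2 lower under DRF, and at ZT12 4 passed (26%). At ZT16 3 passed (25.7%), at ZT20 4 (23.5%) and at ZT24 4 (24.1%). The calls came from Srebf1, Scap, Insig1, Insig2 and Mylip only, each at 5 or 6 of the 7 times, and Srebf2 and Stard4 had none. With the deposited values logged in place of scaled counts, Srebf1 and Insig1 at ZT0 and Scap at ZT12 were lost (adjusted p = 0.262, 0.145 and 0.252 in limma). Leaving out 1 library ended 4 of these calls. Srebf1 at ZT0 was lost without DRF ZT0 replicate 1 or 4 or NRF ZT0 replicate 2 or 3, the last with a log2 difference of -0.39 (adjusted p = 0.177). Scap at ZT12 was lost without DRF ZT12 replicate 1 or 4 or NRF ZT12 replicate 3 (adjusted p up to 0.106). Insig1 at ZT12 was lost without DRF ZT12 replicate 1 or NRF ZT12 replicate 1 or 2 (up to 0.0671), and Insig2 at ZT8 without replicate 3 of either regimen (up to 0.0926).

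**Figure D4:**
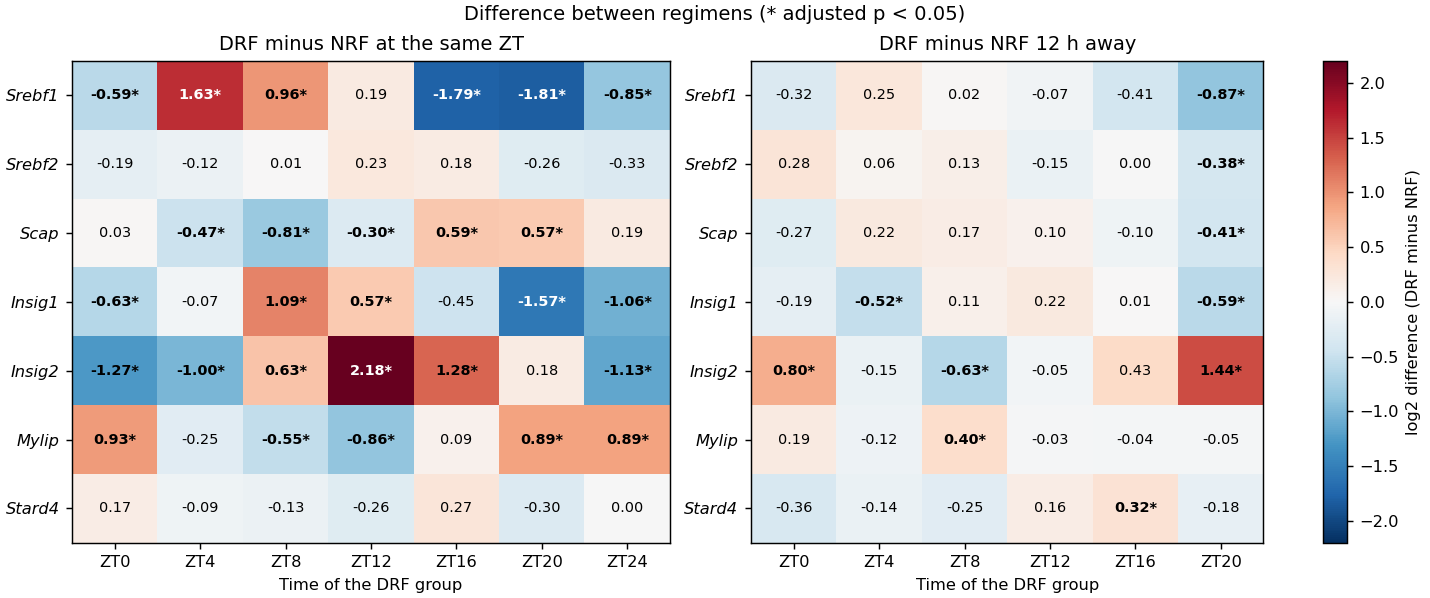
Log2 difference of DRF minus NRF (colour and printed value) for each gene at the same ZT (left) and against the NRF group 12 h away (right); the x axis gives the ZT of the DRF group and asterisks mark adjusted p under 0.05. Most differences at the same ZT shrink on the right, and the ZT20 column on the right keeps 5 marked genes. DRF ZT24 was not compared with the NRF group 12 h away.

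Compared with the NRF group 12 h away, the members differed in 10 of 42 comparisons. DRF ZT24 was left out of these, so NRF ZT12 was set against DRF ZT0 only. In the DRF ZT24 and NRF ZT12 libraries, Insig1 held 86.5 to 143 and 162 to 247 scaled counts. Srebf1 held 101 to 146 and 164 to 223, and Scap 58.9 to 67.2 and 70.1 to 92.5. Insig2 went the other way without overlap, with means of 35.7 and 14.4, and Srebf2, Mylip and Stard4 overlapped. These differences were not tested. At DRF ZT12 against the mean of NRF ZT0 and ZT24, 0 members passed in limma, and 0 had an unadjusted p under 0.05, against 8.68% of all genes. DRF ZT20 and NRF ZT8 lie 8 h after the light change taken as the start of the phase without food. Between these groups 5 of 7 members passed, against 27.5% of all genes. With the deposited values logged in place of scaled counts only Srebf1 and Insig2 of these 5 passed, and the calls of Scap (adjusted p = 0.524 in limma), Insig1 (0.353) and Srebf2 (0.577) were lost. Srebf1 averaged 80.1 ± 19.2 scaled counts in the DRF group and 147 ± 35.4 in the NRF group (SD, n = 4; log2 difference -0.87 ± 0.20, adjusted p = 0.00102). Scap was at 71.7 ± 3.77 and 96.0 ± 8.35, and Insig1 at 111 ± 10.7 and 168 ± 23.3, both lower under DRF with groups that did not overlap. Insig2 went the other way, with 58.4, 68.8, 96.6 and 99.8 under DRF and 24.2, 27.6, 29.8 and 32.8 under NRF, a 2.71-fold higher level (adjusted p = 5.38e-07). Srebf2 was lower by the model (log2 difference -0.38, adjusted p = 0.0303) but its groups overlapped, and the call was lost without NRF ZT8 replicate 2 (log2 difference -0.24, adjusted p = 0.204), NRF ZT8 replicate 1 or 4, or DRF ZT20 replicate 4. Insig1 at this time was lost without NRF ZT8 replicate 2 (adjusted p = 0.0525). The other 5 calls were Insig1 at DRF ZT4 (log2 difference -0.52, adjusted p = 0.0322, groups overlapping), Insig2 at DRF ZT0 (0.80, adjusted p = 0.00933), Insig2 (-0.63) and Mylip (0.40) at DRF ZT8 and Stard4 (0.32) at DRF ZT16. The shares of all genes called were 5.28% at DRF ZT0, 24.2% at ZT4, 21.5% at ZT8 and 28.4% at ZT16. Each of these 5 was lost when some single library was left out: Insig1 without DRF ZT4 replicate 2 or 4 or NRF ZT16 replicate 1, 2 or 4 (adjusted p up to 0.131), Insig2 at DRF ZT0 without replicate 1 (0.0594) and at DRF ZT8 without replicate 1 or NRF ZT20 replicate 3 (up to 0.0699), Mylip without DRF ZT8 replicate 1 or NRF ZT20 replicate 1 or 2 (up to 0.0762), and Stard4 in 35 of 56 fits (up to 0.130).

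The rhythm-adjusted mean differed between regimens for 2 of 7 members, against 11.2% of all genes (7.58% higher and 3.65% lower under DRF). Srebf1 was lower under DRF by a log2 difference of -0.29 ± 0.0890 (SE; adjusted p = 0.0261 in limma), and Insig2 was higher by 0.35 ± 0.0969 (adjusted p = 0.0107). The 5 erythroid markers tested were all higher in mean under DRF (adjusted p from 0.00113 to 0.0273), with summed levels of 295 to 966 scaled counts under DRF and 205 to 762 under NRF, and their part in these differences was not tested. Without ZT24 the difference of Srebf1 did not pass (adjusted p = 0.112).

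Genes that act on the same steps were described from lists, without the 7 members. Of 22 genes of SREBP cleavage and retention, 14 were rhythmic under each regimen (54.7% of all genes under DRF and 61.0% under NRF) and 13 differed in rhythm (57.1% of all genes), and the 11 rhythmic in both had peaks a median of 9.27 h apart (8.12 h over all such genes). These counts are near the background. Rnf145, a ligase of the endoplasmic reticulum known to act on Scap, reached 28.2 ± 2.87 scaled counts (SD, n = 4) at DRF ZT4 and 34.5 ± 6.04 at NRF ZT12 (difference in rhythm, adjusted p = 3.52e-11). Sec24a, a coat protein of the vesicles that carry cargo to the Golgi, also differed (adjusted p = 5.59e-13), with peaks at ZT 0.187 and 15.8. Mbtps2, the site-2 protease that makes the second cut in SREBPs, was among the 2 genes with the smallest test values for a difference (adjusted p = 0.441).

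Of 17 genes of lipoprotein uptake and its control, 9 differed in rhythm, a share no higher than the 57.1% of all genes. Usp2, a deubiquitinase with a known daily rhythm in liver, had the largest test value of the list, with peaks at ZT 2.22 and 14.1. Zfp36l2, an RNA-binding protein, also differed (adjusted p = 8.16e-10), whereas Ube2d2a and Commd1 had the smallest test values (adjusted p = 0.473 and 0.793).

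The targets of SREBPs moved as follows. Of 20 genes of cholesterol synthesis, 17 were rhythmic under DRF (54.7% of all genes) and 15 under NRF (61.0%). Of the 14 rhythmic in both, 11 had peaks 8 to 12 h apart, against 50.7% of all such genes. At DRF ZT20 against NRF ZT8, where Srebf1, Srebf2, Scap and Insig1 were lower, 12 of these 20 genes were lower and 0 higher under DRF, against 13% lower among all genes, and their median log2 difference was -0.61 against -0.01 over all genes. The lists did not move together in this comparison: of the 16 genes of fatty acid synthesis 5 were higher and 0 lower under DRF (median log2 difference 0.49), and of the 22 genes of SREBP cleavage and retention 7 were higher and 0 lower (median 0.13), against 14.5% higher among all genes. Sc5d, an enzyme of the last steps to cholesterol, ran from 183 ± 22.7 scaled counts (SD, n = 4) to 437 ± 40.1 under DRF, with peaks at ZT 10.3 and 22.2. Pmvk, phosphomevalonate kinase, had peaks at ZT 9.90 and 23.2. Hsd17b7 and Msmo1 had the smallest test values for a difference in rhythm (adjusted p = 0.595 and 0.727).

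All 16 genes of fatty acid synthesis were rhythmic in both regimens and differed in rhythm. Of all genes, 38.6% were rhythmic in both and 57.1% differed in rhythm. At ZT8, 14 of the 16 were higher under DRF and 0 lower, against 10.3% higher among all genes, with a median log2 difference of 1.52. Elovl5, an elongase of fatty acids, had peaks at ZT 13.2 and 2.35, and Pnpla3, a lipid hydrolase of lipid droplets, at ZT 9.83 and 20.4. Scd1, the delta-9 desaturase, and Lpin1, a phosphatidate phosphatase, had the smallest test values and still passed (adjusted p = 0.00033 and 3.02e-05). The mean direction of the 16 peaks was ZT 10.8 under DRF and 19.5 under NRF, beside ZT 6.71 and 18.2 for Srebf1.

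**Figure D5:**
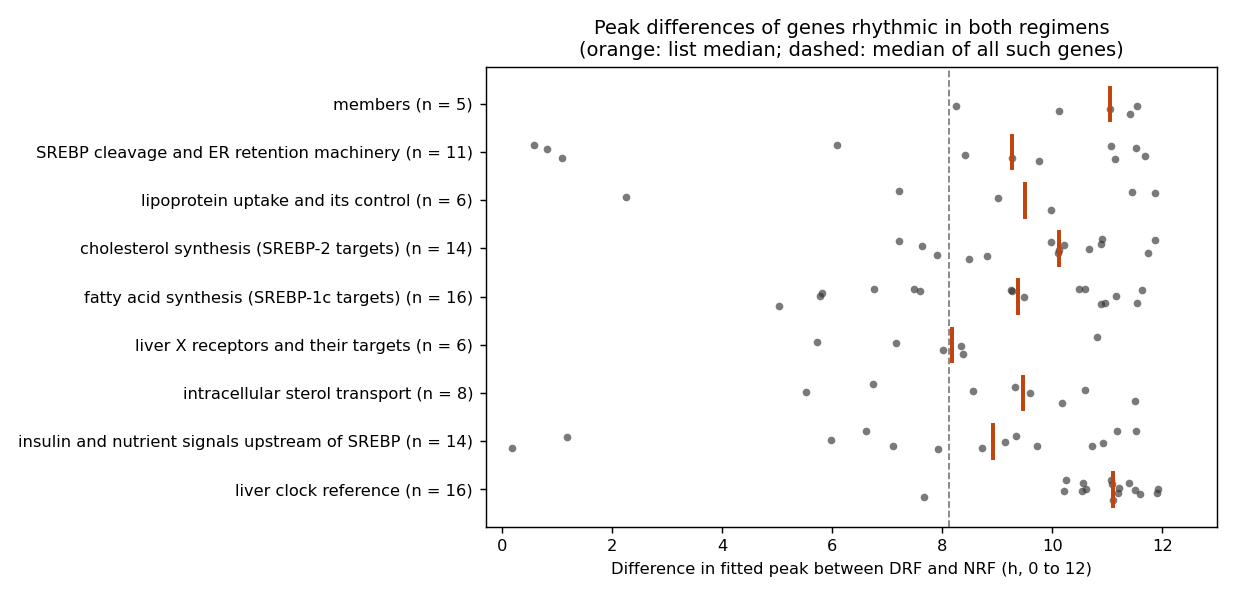
Difference between the fitted peaks under DRF and NRF in hours (x axis, 0 to 12) for each gene rhythmic in both regimens, by gene list (y axis, with the number of genes); orange bars are list medians and the dashed line is the median of all such genes, 8.12 h. The 5 members lie between 8.25 and 11.5 h.

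Upstream and neighbouring pathways were also counted. Beside these counts, 57.1% of all genes differed in rhythm and the median peak difference of all genes rhythmic in both was 8.12 h. Of 11 genes of liver X receptors and their targets, 9 differed in rhythm, with a median peak difference of 8.17 h over the 6 rhythmic in both. Abcg5 and Abcg8, the paired exporters of sterols into bile, reached 275 ± 50.3 and 93.8 ± 21.7 scaled counts (SD, n = 4) at NRF ZT12, where Mylip was near its height at 21.2 ± 2.62. Pltp and Ncoa1 had the smallest test values (adjusted p = 0.361 and 0.423). Of 18 genes of intracellular sterol transport, 12 differed, among them Npc1, the lysosomal cholesterol transporter, with peaks at ZT 21.2 and 9.66, and Soat2, which esterifies cholesterol, with 34.0 ± 6.09 at NRF ZT12. Npc2 and Gramd1b had the smallest values (adjusted p = 0.178 and 0.264). Of 17 insulin and nutrient signals upstream of SREBPs, 13 differed. Mtor, the kinase of nutrient signalling, peaked at ZT 21.0 and 8.48 and Creb3l3, a factor of the fasting response, at ZT 23.4 and 10.3, whereas Rptor and Tsc2 had adjusted p = 0.676 and 0.733. The liver clock served as a reference for the effect of the regimen. Of its 16 genes rhythmic in both, 15 had peaks 8 to 12 h apart, against 50.7% of all such genes. Dbp peaked at ZT 0.379 and 10.6 and Nr1d2 at ZT 21.6 and 10.6. Rora did not differ beyond the threshold (adjusted p = 0.0684) and Cry2 did (6.98e-07).

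The genes whose 14 group means resembled each member most were listed as a description, with Pearson r over 14 groups. For Insig1 they were Gm26608 (r = 0.926), Sc5d (0.911) and Stk38l (0.90). Gm26608 is a lincRNA on the minus strand, and the first base of its annotation, chr5 base 28071105, lies 258 bases from the first base of Insig1, with the genes head to head. For Srebf1 they were Mybbp1a (0.969), Sfpq (0.962) and Thoc5 (0.959). For Insig2 they were Gldc (0.964), Pnp (0.963) and Mfsd4b3 (0.960), and for Mylip they were Gm15663 (0.968), Mia3 (0.968) and Sun3 (0.959). For Scap they were Serpinf2 (0.968), Ssh3 (0.950) and Atp13a2 (0.933). Likeness was lower for the flatter members, with Gm49460 (0.880), 1700022I11Rik (0.859) and Gm48574 (0.852) for Srebf2 and Dock4 (0.790), Tmem63a (0.784) and Zfp597 (0.777) for Stard4. Among the members themselves the highest value was 0.70 for Srebf1 with Insig1 and the lowest was -0.74 for Insig1 with Mylip.

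All 8 hepatocyte markers were expressed, and the 7 lymphocyte markers each averaged below 1 scaled count, with a sum of at most 5.13. Summed macrophage markers ranged from 605 to 1044 scaled counts under DRF and from 582 to 1305 under NRF, and sinusoidal endothelial markers from 411 to 559 and from 421 to 575. Stellate cell markers, summed over 7 of the 8, ranged from 208 to 287 and from 207 to 306, and cholangiocyte markers from 21.5 to 43.7 and from 21.7 to 38.9. Their part in the results on the members was not tested. Between ZT0 and ZT24, the same time of day in different animals, Insig1 under DRF was the only member to differ (log2 difference -0.58, adjusted p = 0.0477 in limma), against 6.12% of all genes. At an unadjusted p under 0.05 in limma there were 3 members under DRF, Srebf2, Insig1 and Insig2. Under NRF 0 members passed in limma, 1 (Scap) had an unadjusted p under 0.05, and 13.7% of all genes passed. The call of Insig1 under DRF was lost in 22 of the 56 fits that left out 1 library each, with adjusted p up to 0.157.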

How the data were processed

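Total RNA of 56 mouse livers was sequenced as strand-specific, ribosome-depleted libraries, although the labels name the molecule as polyA RNA. The submitters' processing notes name CASAVA 1.8, featureCounts 1.5.0-p3 and the builds mm10 and GRCm38.p6, and the aligner is not given in the sources used here. Gene and transcript values deposited by the authors as TPM were treated as a score, because value times exon length (GENCODE) followed a scaled natural log of 1 plus a multiple of whole counts. This curve was inverted to give scaled counts, and 99.1% of held-out values up to 10 counts and 96.3% to 96.6% of larger ones came out whole within 0.05, where chance gives 10%. What 1 count is (a read or a fragment) is not stated. One scaled count stands for 304 to 723 counts, depending on the library. Amplitudes, log2 differences and folds between regimens are on the log2(scaled count + 1) scale, which understates changes of low genes, and ratios of the highest to the lowest group of a regimen are of mean scaled counts. Levels and amplitudes of single genes are printed only where their counts came out whole, and peak times and p-values also for others.

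Genes with a mean of at least 1 scaled count were tested (13684 of 24247 matched). The 1147 loci without an Ensembl identifier were left out. A cosinor with a 24-h period and a model of 14 group means were fitted with limma 3.58.1 (R 4.3.3) to all 56 libraries, with Benjamini-Hochberg adjustment over all genes and a threshold of 0.05. Other steps used Python 3.11.15, pandas 2.3.3, NumPy 2.4.6, SciPy 1.17.1 and Matplotlib 3.10.9. The fits were also run on simulated data with exact cosine rhythms and independent noise. That run does not cover other profile shapes or the inversion of the deposited values. SEs of peaks and amplitudes came from the delta method. The labels do not say whether replicates were handled in separate batches, so p-values measure the spread between these samples. The circular RNA table was not used, since its identifiers could not be matched to the genes.

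The members and gene lists were chosen with earlier results of these data known. Genes named beside the members are from each list the 2 with the largest and the 2 with the smallest test value for a difference in rhythm, and the 3 genes most like each member. Some genes of this rule are not reported here. Replicate numbers did not pair the samples: the deviations of same-numbered libraries had a median correlation of 0.00511, and 0 of 28 pairs exceeded 0.1.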

Additional observations from a re-analysis of the deposited data

Results flagged for a closer look

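Libraries that stood apart from the other 3 of their group were few. Srebf2 in DRF ZT24 replicate 3 was at 33.2 scaled counts, where the others lay between 25.9 and 26.8. Mylip in NRF ZT0 replicate 4 was at 15.5 (others 10.8 to 11.5), and in NRF ZT12 replicate 2 at 25.1 (others 19.5 to 20.2). Each gap exceeded the 95% limit of Dixon's test for 4 samples. Chance flags about 1 in 20 groups, and 98 were examined.

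The 24-h rhythm differed between the regimens in limma for Srebf1 (adjusted p = 4.39e-16), Srebf2 (0.0118), Scap (9.37e-14), Insig1 (6.8e-13), Insig2 (3.44e-15) and Mylip (1.85e-15). The call for Srebf2 was lost without ZT24 (adjusted p = 0.0542).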

How the results depend on the processing

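Members called kept within 1.5 times the main count for the 24-h rhythm, the difference in rhythm and the comparisons at the same ZT and at matched time, each summed over times, under all alternatives run. On the deposited values, which takes a second log of values already on a log scale, the count fell to 3 for the departure from a turn by 12 h, 1 for the mean, and 1 for the 12-h component under NRF, and rose to 3 for ZT24 against ZT0; the mean difference of Srebf2 changed sign (0.000751). Without ZT24 the mean gave 1 member and the 12-h component under DRF 1, and without ZT0 the latter gave 1. The mean of Insig1 passed without ZT0 (-0.25, adjusted p = 0.0261 in limma), and the 12-h component of Insig2 under NRF did not pass with a pseudocount of 10 (0.0634) or without ZT0 (0.0669). ZT24 against ZT0 gave 0 calls with a pseudocount of 10, a correction for length, no filter on low values, and the replicate block.

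With 1 library left out at a time, members called ranged from 5 to 6 for the rhythm under DRF, 5 to 7 under NRF, 4 to 5 for the departure, 0 to 1 for the 12-h component under DRF, 2 to 3 under NRF and 0 to 1 for ZT24 against ZT0. Calls at the same ZT ranged from 25 to 29 and at matched time from 7 to 12. The rhythm under DRF of Srebf2 passed without DRF ZT0 replicate 2 (adjusted p = 0.0389 in limma), and that of Stard4 under NRF without NRF ZT16 replicate 3 (0.00772).

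The replicate block gave 27 calls at the same ZT and 9 at matched time, losing Stard4 at DRF ZT16 (adjusted p = 0.0549 in limma); the numbers do not pair the samples. In the exact rank test Srebf2 under NRF did not pass (adjusted p = 0.0947). A filter at a mean of 10 scaled counts left 6707 genes and 4269 rhythmic under DRF (7482 as reported), 4501 under NRF (8347), 4399 with a difference (7812) and 3768 with a departure (6956), since fewer genes were tested. The 12-h component over all genes fell from 1310 to 593 under DRF and from 616 to 227 under NRF on the deposited values, and to 410 under NRF without NRF ZT16 replicate 1. The causes of other changes were not tested.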
